A study of Mus musculus with 12 samples.

Results

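The replication-dependent histone genes make the bulk of the histone proteins around which DNA is wound: the linker histones H1 and the core histones H2A, H2B, H3 and H4. The members were all mouse genes whose symbol places them in these 5 classes (H1f1 to H1f6 and the numbered H2ac, H2bc, H3c and H4c genes), found on the arrays through the RefSeq transcript of each probe. The rule gives 64 genes, of which 43 had a probe, 48 probes in all among 55681 on the array. The arrays measured RNA of peritoneal macrophages of wild-type (WT) C57BL/6 mice aged 8 weeks in 3 groups of 4 arrays: IL4 at 10 ng/ml plus emodin at 50 µM, IL4 alone at 10 ng/ml, and vehicle control. IL4 is a cytokine that drives alternative activation of macrophages, and emodin is a plant anthraquinone. All cells had adhered to plastic and had then been kept in serum-free medium overnight before treatment. The sample descriptions give 6 h of treatment, whereas the treatment protocol speaks of overnight, and the series design text names peripheral white blood cells in place of peritoneal macrophages. Neither contradiction could be resolved. Whether each array carried RNA of 1 mouse or of several is not stated, so the tests reflect array-to-array spread, some of which may be technical.

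Most replication-dependent histone genes are transcribed as cells enter S phase, when new DNA needs packaging, and they lie in clusters that share a nuclear compartment, the histone locus body, organised by the coactivator NPAT. Their mRNAs are unusual in ending in a stem-loop, bound by the protein SLBP, in place of a poly(A) tail. A smaller share of histone transcripts carries a poly(A) tail, described mainly in cells that have left the cell cycle. The labelling kit used here starts cRNA synthesis from poly(A) tails, so a level in this text is a level of histone RNA that such labelling could reach, and total histone mRNA was not measured. Histone genes of one class also have closely similar coding sequences. The probe sequences were not used here, and how far one probe reads transcripts of several genes was not tested.

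Several facts of the arrays bear on all results. All emodin arrays lay on a slide of their own, and IL4 and control arrays shared the other. The effects of slide and of emodin therefore cannot be told apart. IL4 arrays lay in row 1 and control arrays in row 2, which cannot be told apart from IL4. The labels call replicates 1 and 2 female and replicates 3 and 4 male, but both Xist probes lay well above background on 12 of 12 arrays. The Y-linked genes Ddx3y, Eif2s3y, Kdm5d and Uty lay above background on 0 of the 6 arrays of replicates 3 and 4, so the arrays go against the sex labels and no comparison of sexes was made. The 75th percentile of spot intensity was 488 ± 31.4 on emodin arrays, 776 ± 24.4 on IL4 arrays and 730 ± 74 on control arrays (SD, n = 4 each), and on average 48.3% of probes lay well above background on emodin arrays, 52.3% on IL4 arrays and 50.2% on control arrays. Levels correlated at 0.991 to 0.997 within groups and at 0.955 to 0.988 between groups. Of 10 macrophage markers with a probe, 9 lay above background on all 4 emodin arrays and 10 on all IL4 and all control arrays.

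The genes lie in 3 stretches of chromosome 13 and 1 of chromosome 3 (RefSeq, GRCm38.p6): 18 genes at chr13:21715711-21833475, 5 at chr13:22035122-22043658, 31 at chr13:23531044-23934913 and 10 at chr3:96219885-96270192. A gene was tested where a probe was well above background throughout at least 1 group, and 42 of the 43 genes passed: 6 of 6 H1 genes, 11 of 12 H2A genes, 10 of 10 H2B genes, 7 of 7 H3 genes and 8 of 8 H4 genes. The H2A gene that did not pass, H2ac21, lay above background on 0 of 12 arrays. Of the 42, 35 lay above background on all 12 arrays. Another 6 passed only through the emodin arrays, namely H1f3, H2ac6, H2bc23, H3c1, H3c11 and H3c8, and these had to differ from the other groups, so their emodin values are given with no p. No member probe was saturated.

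A few promoters are shown, with one of each class that was among the most changed between emodin and IL4 arrays, and with H2ac1 as a gene that moved the other way. The windows run from 250 bases before to 50 bases after the gene start, 5′ to 3′ on the strand of the gene, as RefSeq gives them on GRCm38.p6. Capitals mark exact matches, in either direction, to any of the following motifs. The letters TATAAA are those of the core promoter element that recruits the TBP protein. The factor NF-Y binds the letters CCAAT, and the octamer with the letters ATTTGCAT is bound by the POU factor OCT1. The letters AAACACA are a box known from H1 promoters. None of these motifs contains another. The windows are H1f3 at chr13:23554782-23555081 on the plus strand, H2ac6 at chr13:23683910-23684209 on the minus strand, H2bc23 at chr13:21810150-21810449 on the minus strand, H3c11 at chr13:21783348-21783647 on the minus strand, H4c17 at chr13:21811496-21811795 on the plus strand, and H2ac1 at chr13:23934187-23934486 on the plus strand.
H1f3: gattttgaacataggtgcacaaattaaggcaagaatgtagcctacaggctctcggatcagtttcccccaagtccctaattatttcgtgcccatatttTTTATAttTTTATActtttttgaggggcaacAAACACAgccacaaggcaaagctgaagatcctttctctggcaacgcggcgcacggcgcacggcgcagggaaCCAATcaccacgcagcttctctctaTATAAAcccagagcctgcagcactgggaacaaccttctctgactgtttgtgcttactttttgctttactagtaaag
H2ac6: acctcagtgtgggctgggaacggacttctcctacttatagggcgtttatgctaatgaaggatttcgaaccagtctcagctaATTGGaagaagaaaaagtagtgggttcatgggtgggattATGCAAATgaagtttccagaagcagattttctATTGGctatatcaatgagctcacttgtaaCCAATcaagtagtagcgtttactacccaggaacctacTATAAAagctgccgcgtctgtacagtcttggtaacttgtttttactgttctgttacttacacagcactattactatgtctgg
H2bc23: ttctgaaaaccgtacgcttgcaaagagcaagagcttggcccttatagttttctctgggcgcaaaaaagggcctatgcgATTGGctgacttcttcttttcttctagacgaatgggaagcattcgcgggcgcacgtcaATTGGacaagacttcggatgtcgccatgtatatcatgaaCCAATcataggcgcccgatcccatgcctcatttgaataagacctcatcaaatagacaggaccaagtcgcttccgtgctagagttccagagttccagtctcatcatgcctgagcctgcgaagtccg
H3c11: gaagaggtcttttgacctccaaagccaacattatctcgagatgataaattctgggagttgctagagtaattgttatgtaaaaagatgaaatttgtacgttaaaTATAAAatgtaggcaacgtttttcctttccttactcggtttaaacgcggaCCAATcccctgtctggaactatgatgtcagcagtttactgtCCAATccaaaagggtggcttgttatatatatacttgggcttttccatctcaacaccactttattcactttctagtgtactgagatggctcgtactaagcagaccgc
H4c17: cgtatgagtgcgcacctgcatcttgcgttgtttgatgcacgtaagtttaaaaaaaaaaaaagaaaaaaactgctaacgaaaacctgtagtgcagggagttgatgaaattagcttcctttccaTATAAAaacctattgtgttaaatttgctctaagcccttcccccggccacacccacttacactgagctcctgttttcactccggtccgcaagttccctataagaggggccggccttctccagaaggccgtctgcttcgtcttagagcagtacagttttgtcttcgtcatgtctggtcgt
H2ac1: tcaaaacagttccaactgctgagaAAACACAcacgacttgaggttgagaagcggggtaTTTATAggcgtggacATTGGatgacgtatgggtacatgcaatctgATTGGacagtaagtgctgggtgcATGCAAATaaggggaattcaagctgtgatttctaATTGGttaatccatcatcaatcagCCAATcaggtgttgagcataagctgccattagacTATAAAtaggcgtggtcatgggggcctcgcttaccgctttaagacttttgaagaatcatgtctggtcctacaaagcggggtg

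The chosen windows differ in their matches. The H1f3 window holds a TATAAA 26 bases before the start, a CCAAT 51 bases before it and the H1 box 122 bases before it. In H2ac6 a TATAAA stands 32 bases before the start and an octamer in reverse 130 bases before it, and H2ac1 has the same elements at 32 and 124 bases. The H2bc23 window holds 3 CCAAT matches and no TATAAA, and in H4c17 a TATAAA 128 bases before the start is the only match.

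Over the 58 member genes with a window, CCAAT occurred in 6 of 6 H1, 17 of 17 H2A, 14 of 14 H2B, 10 of 10 H3 and 3 of 11 H4 windows, against 37.4% of all 32851 promoter windows. TATAAA occurred in 34 of 58 windows, against 13.6% of all promoters. The octamer occurred in 6 of 17 H2A and 6 of 14 H2B windows and in 0 windows of H1, H3 and H4 genes, against 1.74% of all promoters. The H1 box occurred in 5 of 6 H1 windows, against 7.18% of all promoters. Windows of neighbouring H2A and H2B genes overlap where the genes start back to back, so they are not independent.

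The first comparison asked what emodin changes in the presence of IL4. Histone genes of all 5 classes were higher in IL4 plus emodin macrophages than in IL4 macrophages: 38 of 42 tested genes were higher and 2 lower at adjusted p below 0.05 (limma, Benjamini-Hochberg over all 20860 genes tested). Of all genes tested, 39.4% were higher and 26.5% lower under the same rule. At least a 2-fold difference was seen in 29 histone genes upward and in 1 downward, against 8.48% and 9.86% of all genes. Every emodin array stood above every IL4 array in 37 histone genes and below in 2, against 36% and 24.4% of all genes. The median log2 difference was 1.97 over the histone genes and 0.17 over all genes. These counts hold the 6 genes that passed only through the emodin arrays. Among the 35 genes above background on all 12 arrays, 31 were higher, 2 lower, and the median was 1.60. Those 35 gave 3 of 4 H1, 9 of 10 H2A, 7 of 9 H2B, 4 of 4 H3 and 8 of 8 H4 genes higher, with medians of 2.50, 0.77, 1.60, 1.51 and 2.31. In these bulk samples, fewer cells of a type and less RNA per cell cannot be told apart.

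**Figure D1:**
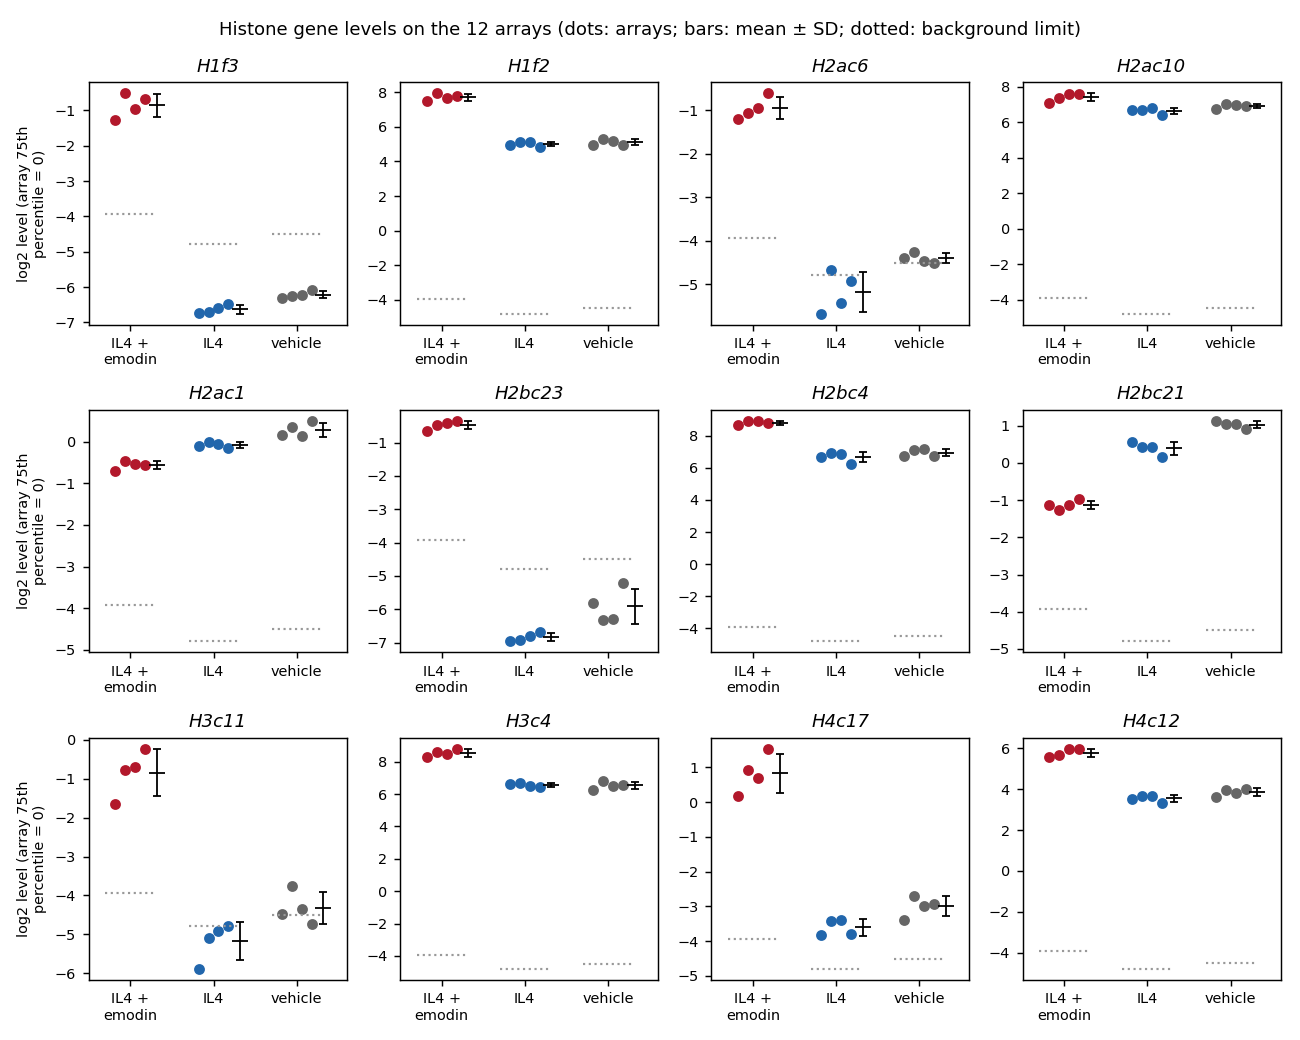
Levels of 12 histone genes on each array, as log2 intensity with the 75th percentile of the array at 0, for IL4 plus emodin, IL4 and vehicle control. Dots are arrays, bars are mean ± SD (n = 4) and dotted lines the mean background limit of the group. The emodin arrays stand above the others in all panels but H2ac1 and H2bc21, where they stand below them, with array scaling to the 75th percentile.

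Linker histones H1 close the nucleosome and compact chromatin. H1f3 had levels of -1.28, -0.52, -0.95 and -0.68 on emodin arrays, against -6.74, -6.70, -6.60 and -6.47 on IL4 arrays (log2, 75th percentile at 0). The IL4 arrays all lay below background, so H1f3 was at least 15.3-fold higher with emodin. H1f2 had 7.48, 7.94, 7.66 and 7.8 on emodin arrays, against 4.98, 5.13, 5.10 and 4.84 on IL4 arrays. Every emodin array of H1f2 stood above every IL4 array, and its log2 difference was 2.71 ± 0.12 (SE, limma adjusted p = 5.94e-09). The testis linker histone gene H1f6 was higher by 2.67 ± 0.16 and H1f4 by 2.32 ± 0.10. H1f1 was higher by 1.62 ± 0.18, and H1f5, at 0.55 ± 0.25, did not pass (limma adjusted p = 0.0732). H1f5 passed with the replicate number as a block (limma adjusted p = 0.0037) and was at -0.53 with spike-in scaling. The H1 median was 2.50.

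H2A genes had the smallest median of the 5 classes, 0.79, with 10 of 11 higher and 1 lower, with a median of 0.33 under quantile scaling, and with scaling to spike-in controls their median was -0.29, with 2 higher and 5 lower. H2ac6 had -1.19, -1.07, -0.94 and -0.61 on emodin arrays, against -5.67, -4.67, -5.42 and -4.93 on IL4 arrays, of which 1 lay above background. The emodin arrays of H2ac6 stood above the IL4 arrays, whose levels lay mostly under background, so that the difference of 4.22 is only a description. H2ac8 was higher by 1.94 ± 0.21. H2ac11 was higher by 1.31 ± 0.16 and H2ac22 by 1.10 ± 0.14, and both calls ended with spike-in scaling (0.23 and 0.01). H2ac19 had 7.23, 7.46, 7.66 and 7.77 on emodin arrays, against 6.76, 6.88, 6.88 and 6.71 on IL4 arrays. The groups did not overlap, and the difference of 0.72 ± 0.11 (limma adjusted p = 0.00012) was -0.36 with spike-in scaling. H2ac10, H2ac12, H2ac15 and H2ac20 had differences of 0.69 to 0.79. With quantile scaling these were 0.26 to 0.33 (H2ac19 0.25), and with spike-in scaling -0.39 to -0.29, where H2ac10, H2ac15, H2ac19 and H2ac20 were called lower. H2ac4 was higher by 0.92 ± 0.16, and it was at -0.16 and not called with spike-in scaling. A second probe of H2ac15 gave 1.44 against 0.69, and one of H2ac19 gave 1.35 against 0.72, so the probes of a gene agreed in direction and not in size.

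H2bc21 and H2ac1 were lower with emodin, and both are named here because they were the exceptions, after their values were seen. H2bc21 (Hist2h2be), an H2B gene of the chromosome 3 group, known in mouse from olfactory sensory neurons, had -1.13, -1.26, -1.13 and -0.98 on emodin arrays, against 0.56, 0.43, 0.44 and 0.15 on IL4 arrays. Every emodin array stood below every IL4 array (difference -1.52 ± 0.10, limma adjusted p = 1.02e-07). H2ac1, a gene known from testis, had -0.70, -0.47, -0.53 and -0.55 on emodin arrays, against -0.11, -0.01, -0.05 and -0.15 on IL4 arrays. These groups did not overlap either (-0.48 ± 0.09, limma adjusted p = 0.000532). Under spike-in scaling the differences of H2bc21 and H2ac1 were -2.60 and -1.56, in the same direction.

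H2B, which pairs with H2A in the nucleosome, rose in 8 of 10 genes and fell in 1, with a median of 1.87. H2bc23 had -0.64, -0.48, -0.41 and -0.36 on emodin arrays, against -6.95, -6.92, -6.80 and -6.69 on IL4 arrays, all below background. It was at least 19.9-fold higher with emodin. H2bc4 had 8.65, 8.89, 8.90 and 8.78 on emodin arrays, against 6.70, 6.90, 6.86 and 6.25 on IL4 arrays. Emodin arrays of H2bc4 stood above IL4 arrays without overlap (difference 2.13 ± 0.15, limma adjusted p = 2.49e-07). H2bc8 was higher by 2.82 ± 0.19. H2bc1, an H2B gene of testis, was higher by 2.27 ± 0.14 and H2bc14 by 2.21 ± 0.18. H2bc6, H2bc3 and H2bc22 were higher by 1.60, 1.15 and 0.87, and with spike-in scaling the calls of H2bc3 (0.07) and H2bc22 (-0.21) ended. H2bc18, at 0.16 ± 0.15, did not pass (limma adjusted p = 0.375), and with spike-in scaling it was called lower at -0.93.

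H3 and H4 form the tetramer at the core of the nucleosome, and all 7 H3 genes and all 8 H4 genes were higher with scaling to the 75th percentile, while with spike-in scaling 5 H3 genes were higher and, of the H4 genes, 7 were higher and 1 lower. Of the 7 H3 genes, 3 passed only through the emodin arrays, and the other 4 were higher with a median of 1.51. Those 3, H3c1, H3c8 and H3c11, are among the 5 that were higher with spike-in scaling, beside H3c4 (0.91) and H3c13 (0.70). H3c11 had -1.65, -0.78, -0.70 and -0.22 on emodin arrays, against -5.89, -5.09, -4.93 and -4.79 on IL4 arrays, all below background, so it was at least 15.5-fold higher. H3c4 had 8.26, 8.62, 8.47 and 8.81 on emodin arrays, against 6.60, 6.69, 6.48 and 6.44 on IL4 arrays. The groups of H3c4 did not overlap (difference 1.99 ± 0.14, limma adjusted p = 1.65e-07). H3c1 was at least 9.04-fold higher and H3c8 at least 3.60-fold higher, both below background on the IL4 arrays. H3c13, H3c7 and H3c3 were higher by 1.78, 1.24 and 0.81, and with spike-in scaling H3c7 (0.15) and H3c3 (-0.27) were not called. The median over all 7 was 1.99.

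H4c17 had 0.17, 0.91, 0.70 and 1.54 on emodin arrays, against -3.82, -3.41, -3.40 and -3.79 on IL4 arrays. All 8 arrays lay above background, and the groups stood far apart (difference 4.44 ± 0.25, SE, limma adjusted p = 3.69e-08). H4c12 had 5.56, 5.69, 5.95 and 5.97 on emodin arrays, against 3.52, 3.65, 3.68 and 3.34 on IL4 arrays. The difference of H4c12 was 2.25 ± 0.13 (limma adjusted p = 3.52e-08), and its second probe gave 2.57. H4c11 was higher by 2.52 ± 0.15, H4c14 by 2.39 ± 0.14 and H4c9 by 2.38 ± 0.18, with 3.87 from a second H4c9 probe. H4c4 and H4c3 were higher by 2.24 and 2.22. H4c8 was higher by 0.52 ± 0.21 (limma adjusted p = 0.0417), but it was not called with quantile scaling (0.39, limma adjusted p = 0.14) and was called lower with spike-in scaling (-0.56, limma adjusted p = 0.04). It was the only called gene whose emodin and IL4 arrays overlapped. The H4 median was 2.31.

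**Figure D2:**
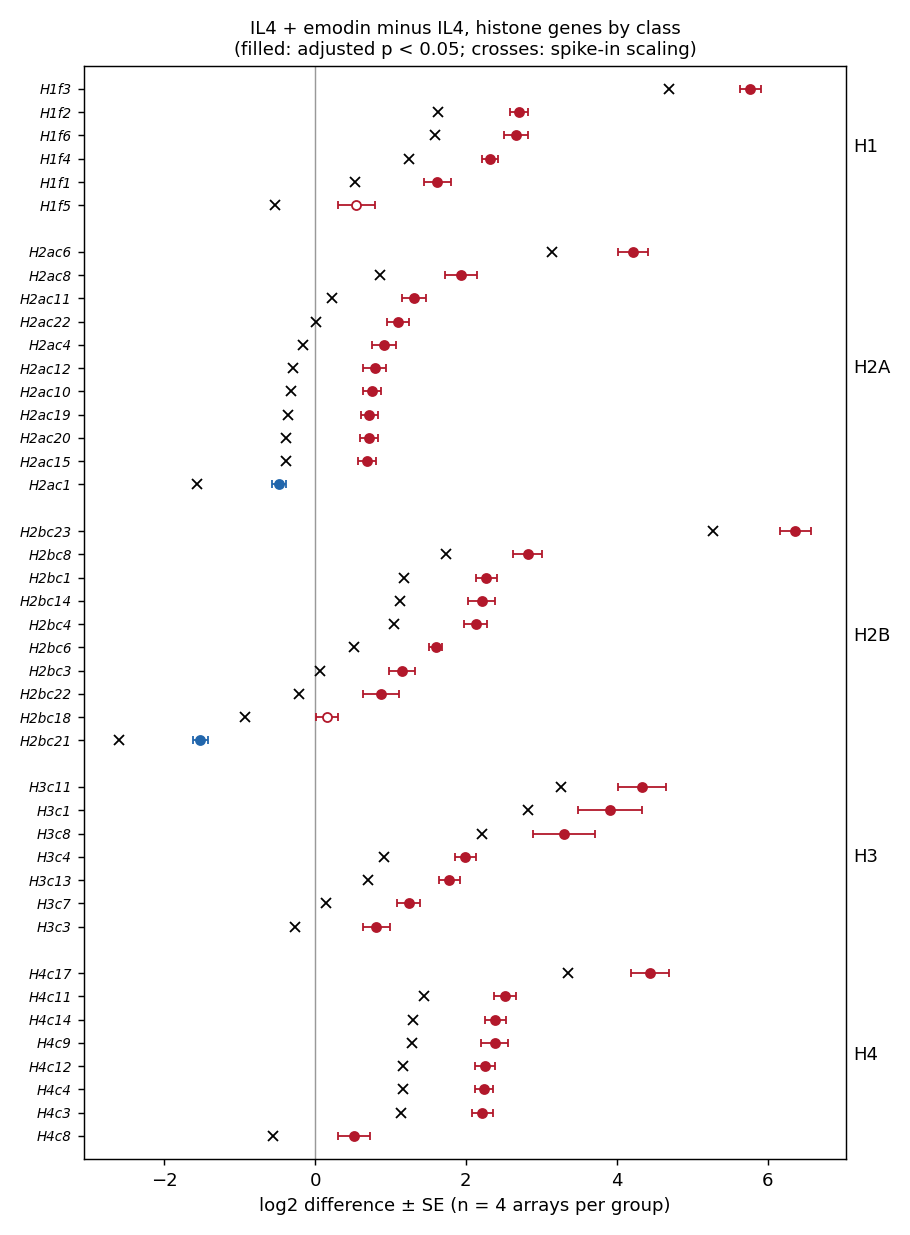
Log2 difference of IL4 plus emodin minus IL4 for the 42 tested histone genes by class, as points with SE (4 arrays per group), filled where limma adjusted p was below 0.05, with crosses for scaling to spike-in controls. H1f3, H2ac6, H2bc23, H3c1, H3c8 and H3c11 passed the background filter only through the emodin arrays, so their filled points are not test results. All points but those of H2ac1 and H2bc21 lie above 0, and with spike-in scaling 29 of 42 do, while most H2A crosses lie below 0.

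The scale matters for these counts. When arrays were scaled to 7 spike-in probes, the median of all genes was lower by 0.91 on the log2 scale on emodin arrays than on IL4 arrays, and the histone median was 0.89. On that scale 25 histone genes were higher and 8 lower, against 732 and 16821 of all 20860 genes. Among the histone genes 11 differences turned sign, 5 called genes were called the other way and 8 lost their call. The class medians were then 1.42 for H1, 0.79 for H2B, 0.91 for H3 and 1.23 for H4. The H2A genes had the direction of their median turned by this scaling, and the other classes kept it. The histone counts and median, and the medians of H1, H2A, H2B and H3, hold the 6 genes that passed only through the emodin arrays. Spike-in medians without those genes were not computed.

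Gene position was a further division. The median difference was 2.23 over 10 tested genes of the first chromosome 13 group, 1.31 over 3 of the second, 2.13 over 23 of the third and 0.71 over 6 of chromosome 3. The first group holds H2bc23 and H3c11, and the third H1f3, H2ac6, H3c1 and H3c8, which passed only through the emodin arrays. These genes had to be higher and none lies on chromosome 3, so the medians cannot be compared on equal terms. Medians without them were not computed. On chromosome 3, H4c14 and H3c13 were higher by 2.39 and 1.78, while H2bc21 was lower by 1.52 on the log2 scale and H2bc18 did not pass. Of the H2A and H2B genes tested that have a promoter window, 11 with the octamer had a median of 1.15 (lowest -0.48, highest 4.22) and 8 without it a median of 0.98 (lowest 0.69, highest 6.37). The highest values are those of H2ac6 and H2bc23, which passed only through the emodin arrays.

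**Figure D3:**
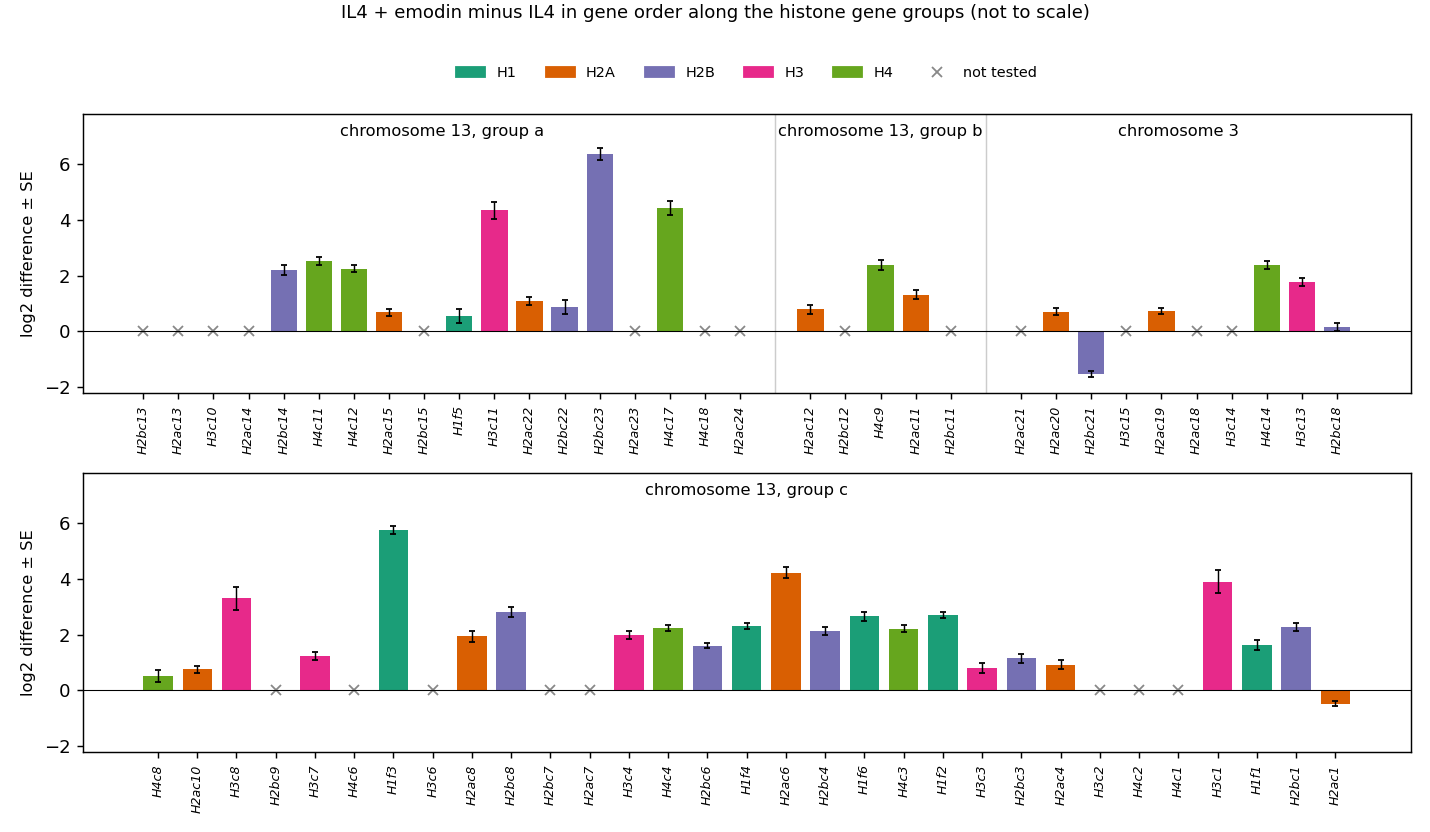
Log2 difference of IL4 plus emodin minus IL4 (bars, ± SE, n = 4 arrays per group) for histone genes in chromosomal order in the 4 gene groups, coloured by class, with crosses for genes not tested. H2bc23 at 6.37 and H1f3 at 5.77 are the highest bars, and H2bc21 and H2ac1 lie below 0. Both of the highest lay below background on all IL4 arrays, where only at least 19.9-fold and at least 15.3-fold can be given. The bars of H2ac6, H3c1, H3c8 and H3c11 also rest on genes that passed the background filter only through the emodin arrays. Distances are not to scale.

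Some H2A and H2B genes start back to back, and 9 such pairs lay within 500 bases of each other, of which 3 had both genes tested. A ratio within a pair needs no scaling between arrays. H2bc1 minus H2ac1, whose starts lie 281 bases apart, was 7.41 ± 0.14 on emodin arrays and 4.66 ± 0.14 on IL4 arrays (log2, SD, n = 4 each). The ratio was thus 2.75 higher with emodin, with no overlap (exact permutation test, two-sided p = 0.0286, the smallest that 4 against 4 can give, adjusted p = 0.0429 over the 3 pairs). H2bc1 was higher and H2ac1 lower, each without overlap, so this ratio had to separate and its p adds no support of its own. H2bc8 minus H2ac8, 180 bases apart, was 1.14 ± 0.15 on emodin arrays and 0.27 ± 0.10 on IL4 arrays, a difference of 0.87 (exact permutation p = 0.0286, adjusted p = 0.0429). H2bc22 minus H2ac22, 240 bases apart, was -8.57 ± 0.13 on emodin arrays and -8.34 ± 0.18 on IL4 arrays (exact permutation p = 0.0857). The partners of the first and the second pair thus changed unequally.

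The histone genes also moved together from array to array. On emodin arrays, replicate 1 was the lowest of the 4 in 36 of 42 genes and replicate 4 the highest in 32, with median deviations from the group mean of -0.27 and 0.22, while over all genes these were -0.03 and 0.01. On control arrays replicate 1 was the lowest in 29 of 42 genes. The median SD within the group for histone genes was 0.26 on emodin arrays, 0.15 on IL4 arrays and 0.21 on control arrays. For all genes it was 0.18 on emodin, 0.13 on IL4 and 0.17 on control arrays. Leaving out each emodin array in turn changed no call among the named genes.

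The comparison with vehicle control uses the same emodin arrays. Of 42 genes, 35 were higher and 2 lower in IL4 plus emodin macrophages than in control macrophages, against 37.3% and 25.6% of all genes tested, and the median difference was 1.85 against 0.15 over all genes. With spike-in scaling 25 were higher and 12 lower, against 834 and 16142 of all 20860 genes. At least a 2-fold difference was seen in 26 genes upward and 1 downward, against 7.81% and 8.83% of all genes. The groups did not overlap in 33 genes above and 2 below control, against 32% and 22.3% of all genes. All these counts hold the 6 genes that passed only through the emodin arrays. Among the 35 genes above background on all 12 arrays, 28 were higher and 2 lower, with a median of 1.57. Of those 35, 19 were at least 2-fold higher and 1 at least 2-fold lower. H1f3 was at least 12.5-fold higher and H2bc23 at least 16.3-fold higher, both below background on the control arrays. H4c17 had 0.17, 0.91, 0.70 and 1.54 on emodin arrays, against -3.38, -2.69, -3 and -2.92 on control arrays. H4c17 was higher by 3.83 ± 0.25 (limma adjusted p = 1.2e-07), and its groups did not overlap. H2bc21 was lower by 2.15 ± 0.10 in log2 units (-2.15, limma adjusted p = 7.38e-09), with control levels of 1.13, 1.04, 1.04 and 0.91. H2ac1 differed by -0.85 ± 0.09 (limma adjusted p = 6.43e-06). H1f5, H2bc18, H2bc22, H3c3 and H4c8 did not pass, with differences of 0.30, -0.08, 0.19, 0.13 and 0.46. For H2A genes the split was 10 higher and 1 lower, and it was 5 and 1 under quantile scaling and 2 and 7 under spike-in scaling.

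A minority of the histone genes were lower with IL4 alone. Of 42 genes, 0 were higher and 9 lower in IL4 macrophages than in control macrophages (limma), against 8.97% and 8.57% of all genes tested. The 9 hold H2bc23 and H2ac6, which lay below background on all or most of these arrays. Among the 35 genes above background on all 12 arrays, 7 were lower. An unadjusted limma p below 0.05 was found in 21 of the 42, against 6218 of all 20860 genes. The median difference was -0.29 over the histone genes and -0.03 over all genes. Same-numbered arrays deviated together here, and with the replicate number as a block 15 histone genes were lower, against 2663 of all 20860 genes. Without a block, the histone count was 5 when control replicate 2, control replicate 3 or IL4 replicate 4 was left out. The calls of H1f6, H2ac4, H2ac6, H3c3 and H4c14 were each lost without at least 1 of the arrays. Scaling to spike-in controls left 2 lower, against 708 of all 20860 genes. The 2 were H2bc21 and H2bc23, and H2bc23 lay below background in both groups. The IL4 and control arrays did not overlap in 15 genes, all with IL4 below control, and in 0 with IL4 above it, against 12.8% and 12.1% of all genes. The 15 hold H1f3 and H2bc23, above background on 0 arrays of either group. They also hold H3c11, above it on 0 IL4 arrays and 1 control array, and H2ac6, on 1 and 2. The background limit itself was lower on IL4 arrays (-4.9 to -4.66) than on control arrays (-4.6 to -4.35). No direction is therefore given for H1f3, H2bc23, H3c11 and H2ac6. A difference of at least 2-fold was called in 0 histone genes, against 2.71% of all genes upward and 1.23% downward.

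**Figure D4:**
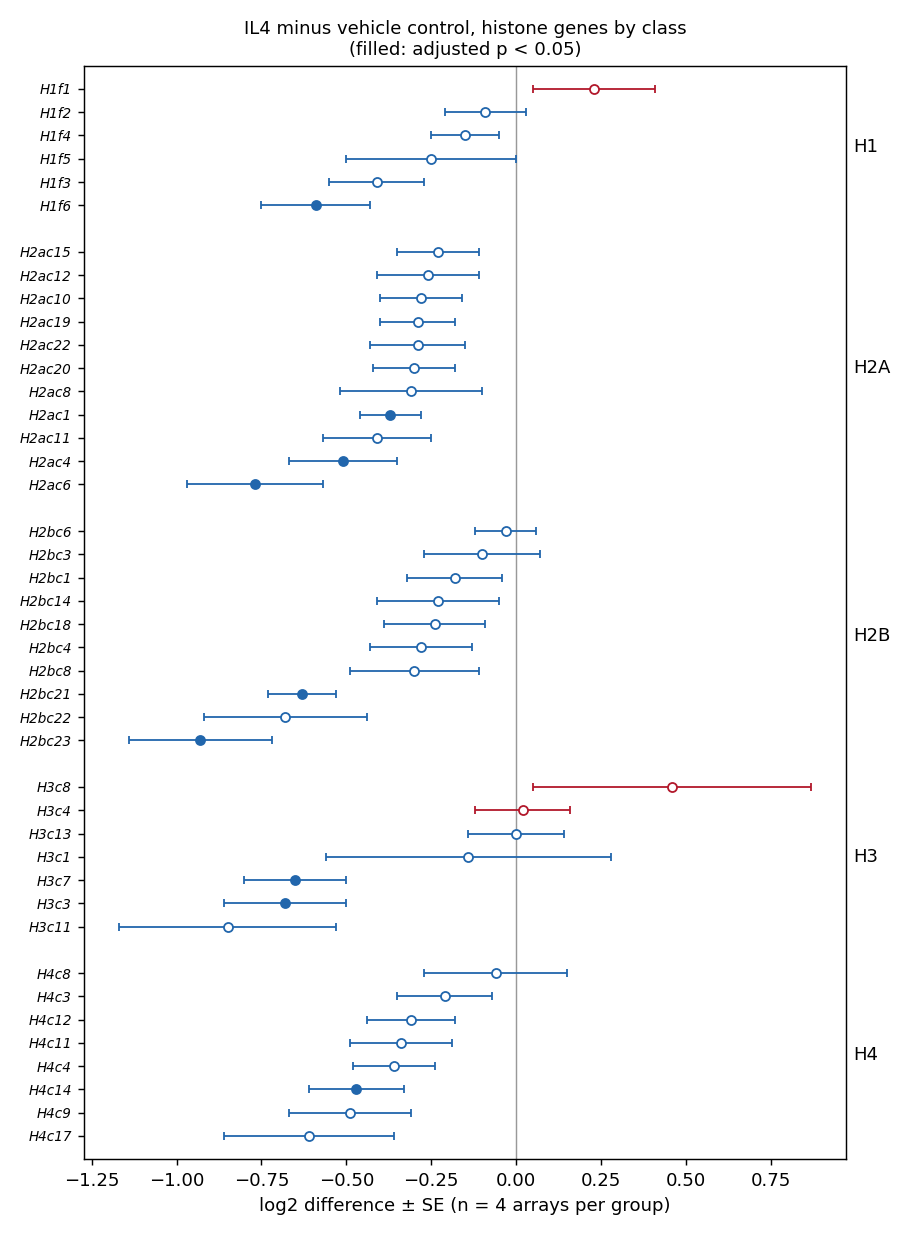
Log2 difference of IL4 minus vehicle control for the 42 tested histone genes by class, as points with SE (4 arrays per group), filled where limma adjusted p was below 0.05. The 9 filled points lie below 0. H2bc23 lay below background in both groups, and H2ac6 was above it on 1 IL4 array and 2 control arrays.

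H2bc21 had 0.56, 0.43, 0.44 and 0.15 on IL4 arrays, against 1.13, 1.04, 1.04 and 0.91 on control arrays. The groups did not overlap, and the difference of -0.63 ± 0.10 passed (limma adjusted p = 0.000753), as it did with spike-in scaling. H3c3, with -0.68 ± 0.18, and H3c7, with -0.65 ± 0.15, were the lower H3 genes (limma adjusted p = 0.0224 and 0.00942). H1f6 fell by 0.59 on the log2 scale, H2ac4 by 0.51, H4c14 by 0.47 and H2ac1 by 0.37. H2ac6, at -0.77 ± 0.20, was above background on 1 IL4 array and 2 control arrays. H2bc23 was called at -0.93 although both groups lay below background on all arrays, so no direction is given for it. The genes named for their mean level in each class, H1f2, H2ac19, H2bc4, H3c4 and H4c12, had differences of -0.09, -0.29, -0.28, 0.02 and -0.31 and none passed.

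Genes that make and process histone mRNA changed in both directions. Of 31 tested members of a list of transcription factors, processing factors and decay factors of histone mRNA, 9 were higher and 14 lower in emodin macrophages than in IL4 macrophages (median -0.13). Of all genes, 39.4% were higher and 26.5% lower. With spike-in scaling 31 were lower, against 16821 of all 20860 genes. Cdk2, whose kinase phosphorylates NPAT, had a mean level of -1.76 on emodin arrays, against -0.15 on IL4 arrays (difference -1.61 ± 0.10, limma adjusted p = 6.34e-08). Zfp473, a component of histone pre-mRNA processing, was at least 1.87-fold lower. It passed the background filter only through the IL4 arrays, so no p is given for it. Pabpn1, the nuclear poly(A)-binding protein, differed by -0.88 and Cstf3, a cleavage stimulation factor, by -0.78. Slbp had -0.27 ± 0.12 and did not pass (limma adjusted p = 0.0717), though it did with the replicate number as a block (limma adjusted p = 0.0141). Npat was not tested, since its probe did not pass the background filter. In IL4 against control macrophages, 3 of the 31 were higher (Zfp473, Nfya and Casp8ap2, with 1.24, 0.45 and 0.28) and 0 lower, against 8.97% and 8.57% of all genes. With the replicate number as a block, 4 were higher and 2 lower, against 2641 and 2663 of all 20860 genes. The added genes were Upf1 at 0.30, Lsm11 at -0.30 and Cstf2 at -0.30. All these counts hold Zfp473, above background on 4 IL4 arrays and 2 control arrays.

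Chaperones and replacement variants were mixed. Of 20 histone chaperone genes, 8 were higher and 6 lower in emodin than in IL4 macrophages, near the 39.4% and 26.5% of all genes. Npm1 was higher by 1.18 ± 0.10 and Asf1a by 0.84 ± 0.08, with Asf1b at -1.66 ± 0.12 and Hjurp at -0.91 ± 0.13. With spike-in scaling 0 were higher and 17 lower, against 732 and 16821 of all 20860 genes. Npm1 was then at 0.10 and Asf1a at -0.25, both not called. Among 11 tested replacement histone variants, which are made outside S phase from polyadenylated mRNA, 7 were higher and 1 lower, against the same shares of all genes. H3f3b, which encodes H3.3, was higher by 1.77 ± 0.12 (limma adjusted p = 1.47e-07), Cenpa, the centromeric H3, by 0.84 and H2aj by 0.56. H2az1 had -0.18 (limma adjusted p = 0.0995, and 0.0437 with the replicate number as a block). With quantile scaling 4 variants were higher and 2 lower, against 6135 and 6452 of all 20860 genes. H2aj was then at 0.07 and not called, and H2az1 was called at -0.67. With spike-in scaling 1 variant was higher and 9 lower, against 732 and 16821 of all 20860 genes. H3f3b was then still higher at 0.69, Cenpa was at -0.24 and not called, and H2aj was called at -0.52.

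Genes of S phase and division also changed in both directions. Of 32 tested, 8 were higher and 11 lower in emodin macrophages than in IL4 macrophages (median -0.25), against 39.4% and 26.5% of all genes. With spike-in scaling 0 were higher and 28 lower, against 732 and 16821 of all 20860 genes. E2f2 and Mcm5, a subunit of the replicative helicase, differed by -1.50 ± 0.23 and -1.33 ± 0.13. Cdc6, a licensing factor, lay above background on 1 emodin array and 0 IL4 arrays, so no direction is given for it. Top2a was higher by 1.13 ± 0.20 and Mki67, a marker of cycling cells, by 0.75 ± 0.21 (limma adjusted p = 0.00735), and with spike-in scaling neither was called (0.05 and -0.33). In IL4 against control macrophages Mcm2 was higher by 0.61, Cdc6 at least 1.84-fold lower, and E2f2, Gmnn and Pcna differed by -0.85, -0.71 and -0.47. Without a block 1 was higher and 4 lower, against 8.97% and 8.57% of all genes. The replicate block gave 3 higher and 5 lower, against 2641 and 2663 of all 20860 genes. Mki67 was higher at 0.50 with the block (limma adjusted p = 0.00561).

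Markers of other cells were counted beside these results. Of 8 B cell markers with a probe, 1 lay above background on all 4 emodin arrays, 3 on all IL4 arrays and 4 on all control arrays. No emodin array showed 6 of them, no IL4 array 4 and no control array 3. Cd79a, Pax5, Ebf1 and Blk passed the background filter in no group. The summed B cell level was 0.449 to 0.627 on emodin arrays, 1.2 to 2.21 on IL4 arrays and 1.19 to 2.56 on control arrays (75th percentile of the array at 1). Cd79b differed by -2.16 ± 0.25 between emodin and IL4 arrays. The summed neutrophil level was 36.7 to 59.0 on emodin arrays, 19.3 to 30.4 on IL4 arrays and 26.8 to 39.9 on control arrays, with 4 of 8 markers above background on all emodin arrays. Of 5 tested neutrophil markers, 2 were higher and 0 lower on emodin than on IL4 arrays (median 0.61), against 39.4% and 26.5% of all genes. With spike-in scaling 0 were higher and 3 lower (median -0.48), against 732 and 16821 of all 20860 genes. Summed levels of T cell, mast cell and mesothelial or fibroblast markers overlapped between emodin and IL4 arrays. The part of these cells in the histone differences was not tested.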

How the data were processed

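Cy3-labelled RNA of 12 samples was read on Agilent arrays, and per the file headers the deposited intensity values came from Agilent Feature Extraction 10.7.3.1, as named there, which subtracted background within each array. The authors' deposited value table holds log2 values, which had a correlation of 1 on each array with scanner values that were quantile-normalized and centred per probe, and the table was used as an alternative. Control spots were left out and spots of one probe averaged. Levels are log2 intensity relative to the array's own 75th percentile. The filter kept 27705 of 55681 probes, those above background throughout a group, and the kept probe with the highest mean stood for a gene. Symbols came from RefSeq transcripts (27509 probes with a single symbol).

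Group means over 12 arrays were compared with limma 3.58.1, run in R 4.3.3 (9 residual degrees of freedom), and p-values were adjusted by Benjamini-Hochberg over all 20860 genes. The fit was tested on simulated data. Where the dimmer group lay below background, a fold is a lower bound computed from the background limit. Number of arrays limits the precision. Named were, in each class and comparison, the 4 called genes with the largest difference and the gene with the highest mean, and from other lists up to 4 called genes and Slbp, Npat, Mki67, Top2a and H2az1. Members and lists were chosen with earlier results of these data known. Same-numbered arrays deviated together in IL4 against control (correlations 0.495, 0.283, 0.312 and 0.402). The main fit used no block in any comparison, so its SE and adjusted p ignore this pairing. Results with the replicate number as a block are given as an alternative.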

Additional observations from a re-analysis of the deposited data

Results flagged for a closer look

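Single arrays stood apart from the other 3 of their group in 3 of 126 checks of a gene in a group, where about 1 in 20 is reached by chance. H3c7 had a level of -0.10 on emodin replicate 4, against -0.67 to -0.57 on the other emodin arrays. H2bc22 had -3.49 on IL4 replicate 4, against -3.14 to -3.07 on the other IL4 arrays. H2bc22 had -1.67 on control replicate 4, against -2.88 to -2.70 on the other control arrays. The cause was not tested.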

How the results depend on the processing

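The counts of histone genes called higher or lower stayed within 1.5 times the reported count under every alternative tried except those given here, and no cause was tested. With spike-in scaling, 25 genes were higher and 8 lower in emodin against IL4, 12 were lower in emodin against control, and 2 were lower in IL4 against control. Over all 20860 genes these counts were 732, 16821, 16142 and 708. In IL4 against control, 15 genes were lower with a replicate block and 15 with the compared groups fitted alone, against 2663 and 1993 of all 20860 genes. Between 5 and 12 were lower when one array was left out, with 5 without control replicate 2, control replicate 3 or IL4 replicate 4. The replicate block moved emodin against IL4 to 39 higher and 2 lower, against 9012 and 6085 of all 20860 genes. It moved emodin against control to 36 and 2, against 8617 and 5895 of all genes. Same-numbered arrays correlated at 0.409, 0.0824, 0.299 and 0.359 in emodin against IL4. In emodin against control they correlated at 0.494, 0.0541, 0.32 and 0.339. In all 4 pairs of both comparisons the same number correlated better than any other, a hint of pairing from the data. The margin was small for replicate 2 (0.0824 against 0.0586, and 0.0541 against 0.0494). The main fit and the exact permutation tests ignore this pairing, and the block results are the alternative. With the block, H1f5, Slbp and H2az1 also passed in emodin against IL4 (limma adjusted p = 0.0037, 0.0141 and 0.0437), and 17 S phase genes were lower, against 11 without it. With spike-in scaling the sign turned in 11 of 42 genes in emodin against IL4, in 13 in emodin against control and in 4 in IL4 against control. In emodin against IL4 these were H1f5 (-0.53), H2ac4 (-0.16), H2ac10 (-0.32), H2ac12 (-0.29), H2ac15 (-0.39), H2ac19 (-0.36), H2ac20 (-0.38), H2bc18 (-0.93), H2bc22 (-0.21), H3c3 (-0.27) and H4c8 (-0.56). Among the genes named by rule, signs also turned for H2ac19 (emodin against control -0.55 with spike-in scaling, -0.03 with normexp and quantile, -0.01 with quantile scaling and -0.01 in the deposited table), H2ac11 (emodin against control -0.08 with spike-in scaling), H2bc23 (IL4 against control 0.08 with normexp and quantile), H3c4 (IL4 against control, -0.07 to 0.12 when one array was left out, with -0.07 without control replicate 1 and -0.02 without IL4 replicate 2) and H1f2 (IL4 against control 0 with spike-in scaling).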
